A study of Homo sapiens with 12 samples.

Results

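The genes described here are HMGA1, HMGA2, LIN28B, IGF2BP1, IGF2BP2, IGF2BP3 and ARID3B, 7 of the 58302 genes in the files, chosen by name as HMGA genes and oncofetal targets of the let-7 microRNAs. They were measured by RNA sequencing in 2 human ccRCC (clear cell renal cell carcinoma) cell lines, 769-P and ACHN, after knockdown of NUF2, a subunit of the NDC80 kinetochore complex. In the si-NUF2 groups the cells were transfected for 48 h with siRNA against NUF2, which the study made by mixing a pair of siRNAs, and in the si-NC groups for 48 h with a negative control siRNA. Each of the 4 groups had 3 libraries. No parental, untransfected or rescued cells entered the comparison, so every value is from transfected cells of an established line, and the labels do not say whether the replicates were separate cultures. The p-values therefore measure the spread between these libraries, which may be technical.

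HMGA1 and HMGA2 are small chromatin proteins whose AT-hooks bind the minor groove of AT-rich DNA and bend it, and both are made in the embryo, are low in most adult tissues and return in many tumors. Let-7 microRNAs rise as cells differentiate and repress a group of embryonic mRNAs through sites in their 3′ UTRs, among which HMGA2 is the classical example. LIN28B blocks the maturation of let-7 and is itself a let-7 target. IGF2BP1, IGF2BP2 and IGF2BP3 are RNA-binding proteins that stabilize or localize mRNAs, and ARID3B is a DNA-binding protein of the AT-rich interaction domain family.

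The let-7 family is shown by 3 of its mature microRNAs, from RefSeq (GRCh38.p14), with the seed (bases 2 to 8) in capitals, because this shared seed defines the family and its sites. All 9 mature let-7 and miR-98 sequences carried the same seed, although the rest of the sequence varied.
let-7a-5p: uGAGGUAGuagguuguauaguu
let-7i-5p: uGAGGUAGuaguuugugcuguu
miR-98-5p: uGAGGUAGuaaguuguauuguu

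A seed match in an mRNA reads CTACCTC. It was searched on the sense strand of the 3′ UTR of 1 transcript for each gene (GENCODE release 29, hg38), and 8.58% of 19080 genes held at least 1 match. HMGA2 held 4 matches in the 3003 bases of the 3′ UTR of HMGA2-204, a number reached by 0.0629% of genes. They are printed first, with the match in capitals, followed by the single matches of the 4 other members that had over 200 reads in every library.
HMGA2 site 1, chr12:65963299-65963320, forward strand: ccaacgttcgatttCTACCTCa
HMGA2 site 2, chr12:65964534-65964555, forward strand: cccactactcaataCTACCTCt
HMGA2 site 3, chr12:65964946-65964967, forward strand: tgacttgcaaagacCTACCTCc
HMGA2 site 4, chr12:65965799-65965820, forward strand: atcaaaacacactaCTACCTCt
HMGA1, chr6:34245830-34245851, forward strand: cctctgttcacaaaCTACCTCt
IGF2BP2, chr3:185644220-185644241, reverse strand: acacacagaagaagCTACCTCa
IGF2BP3, chr7:23311795-23311816, reverse strand: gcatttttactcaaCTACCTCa
ARID3B, chr15:74598102-74598123, forward strand: atttcaataaacctCTACCTCt

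The match of HMGA2 site 1, of IGF2BP2 and of IGF2BP3 was followed by an A, the base opposite the first base of the microRNA in the strongest class of sites, and the other 5 printed were not. LIN28B and IGF2BP1 also held 4 matches each, in 3′ UTRs of 4549 and 6206 bases. The number depended on the HMGA2 isoform. HMGA2-204 was the only 1 of its 7 annotated coding transcripts with a match, and the longest of the other 3′ UTRs, of 7421 bases, had 0. The deposited values are per gene and do not separate isoforms. Shorter matches, to bases 2 to 7 only and followed by an A, were not counted as seed matches. ARID3B held 4 of these and HMGA2 3. IGF2BP1, IGF2BP2 and LIN28B held 1 each, and HMGA1 and IGF2BP3 held 0. A match is a string of letters and was not tested for binding.

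Reads recovered from the FPKM summed to between 29156132 and 38662438 per library. NUF2 itself went from 18.3 ± 1.09 scaled FPKM under si-NC to 3.69 ± 0.61 under si-NUF2 for 769-P, and from 13.7 ± 1.97 to 3.87 ± 1.52 for ACHN (SD, n = 3), with no overlap of the groups in either line. PAX8, the renal lineage factor, was present in both lines at mean levels between 48.5 and 133 scaled FPKM, whereas CA9, a hypoxia-induced marker of clear cell tumors, had means between 0.019 and 0.063. The other listed markers of renal epithelium and clear cell carcinoma are not reported here, so PAX8 and CA9 speak only for themselves. The 7 leukocyte, endothelial and fibroblast markers had means between 0 and 0.32, and CD3E was at 0 in all 12 libraries. Same-numbered libraries of the si-NUF2 and si-NC groups deviated from their group means together, so the limma tests of si-NUF2 against si-NC were made without and with the replicate number as a block.

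HMGA2 was the member with the lowest fold change in both lines. In 769-P cells its 3 si-NUF2 libraries had 8.03, 6.08 and 5.38 scaled FPKM (fragments per kilobase of exon, relative to the fragments of the library, then scaled between libraries), and its si-NC libraries 28.9, 28.9 and 36.9. The groups were far apart, and the si-NUF2 mean was 20.6% of the si-NC mean. The log2 fold change was -2.27 ± 0.17 (SE), with an adjusted p of 0.00271 without the block and 0.00508 with it. Lower mRNA per cell and fewer cells that make it cannot be told apart in bulk RNA.

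In ACHN cells HMGA2 was at 16.02, 5.39 and 9.36 scaled FPKM with si-NUF2 and at 51.2, 18.2 and 34.6 with si-NC, in the order of replicates 1, 2 and 3. The groups did not overlap, although the highest si-NUF2 library, replicate 1, came close to the lowest si-NC library, replicate 2. Replicate 1 was the highest and replicate 2 the lowest in both groups. Within same-numbered pairs the log2 differences were therefore close to each other, at -1.67, -1.73 and -1.87, while the levels of a group spanned about 3-fold. The log2 fold change of -1.76 had an SE of 0.51 and an adjusted p of 0.434 without the block, and an SE of 0.057 and an adjusted p of 0.00801 with it. An exact permutation test of the 3 against 3 libraries gave p = 0.1 in each line, the smallest that it can give.

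HMGA1, the other gene of the family, did not follow HMGA2. In 769-P cells it had 613, 487 and 497 scaled FPKM with si-NUF2 and 588, 459.5 and 439 with si-NC, and the groups overlapped. In ACHN cells the values were 290.1, 196 and 254 with si-NUF2 and 248, 186 and 259 with si-NC. The log2 fold changes were 0.11 ± 0.14 (adjusted p = 0.662, and 0.102 with the block) and 0.09 ± 0.20 (adjusted p = 0.989, and 0.360 with the block). In FPKM HMGA1 was the more abundant of the pair, with HMGA2 at 6.54% ± 1.76 of HMGA1 in 769-P cells with si-NC and at 1.21% ± 0.12 with si-NUF2 (SD, n = 3). In ACHN cells this share was 14.6% ± 5.52 with si-NC and 3.99% ± 1.41 with si-NUF2. These shares depend on the length by which reads are divided, 15403 bases of annotated exon for HMGA2 and 2327 for HMGA1, and would be larger for a shorter HMGA2 transcript. In reads, HMGA2 exceeded HMGA1 in ACHN si-NC replicate 1 (24996 against 18323).

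**Figure D1:**
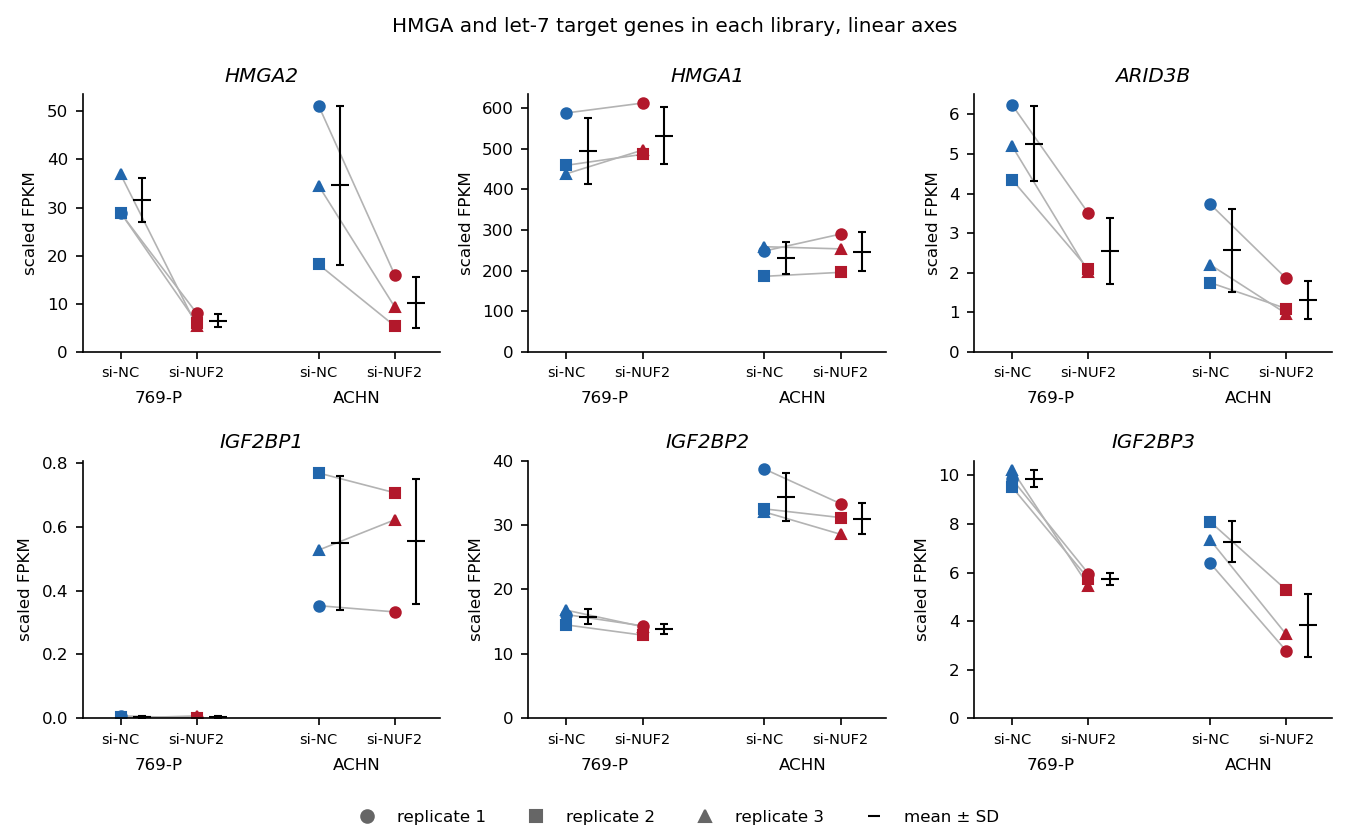
Scaled FPKM (linear axes from 0) of 6 genes in each of the 12 libraries, with si-NC in blue, si-NUF2 in red, a marker for each replicate number, grey lines between same-numbered libraries, and black bars for the mean ± SD of 3 libraries. HMGA2 falls along each line in both cell lines, ARID3B and IGF2BP3 also fall along each line, and HMGA1 stays between 439 and 613 (769-P) or between 186 and 290.1 (ACHN).

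The 3 IGF2BP genes behaved differently from each other. IGF2BP3, the oncofetal member used as a marker of renal carcinoma, stood in 769-P cells at 9.84, 9.51 and 10.2 scaled FPKM under si-NC and at 5.96, 5.75 and 5.46 under si-NUF2. The spread within a group was small, and the log2 fold change was -0.78 ± 0.073 (adjusted p = 0.00419, and 0.00508 with the block). In ACHN cells it had 2.77, 5.28 and 3.45 with si-NUF2 and 6.39, 8.09 and 7.34 with si-NC. The groups did not overlap, and the log2 fold change of -0.95 ± 0.24 had an adjusted p of 0.373 without the block, 0.0191 with it and 0.0411 when all 12 libraries were fitted together, a fit that called 0.199% of genes lower. IGF2BP3 shares 1521 exon bases with MALSU1, which lies on the opposite strand, and whether reads were counted by strand is not given in the sources used here, so there the reads of the pair cannot be told apart. MALSU1 itself changed by -0.083 ± 0.069 on the log2 scale for 769-P and by 0.09 ± 0.20 for ACHN (adjusted p = 0.490 and 0.990).

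IGF2BP2, the most widely expressed gene of this family in adult tissue, stood in 769-P cells at 16.1, 14.5 and 16.8 scaled FPKM under si-NC and at 14.3, 12.9 and 14.2 under si-NUF2. The groups did not overlap, but the lowest si-NC and highest si-NUF2 library were nearly level. Its log2 fold change of -0.19 ± 0.084 had an adjusted p of 0.201, and passed the threshold of 0.05 only with the block (adjusted p = 0.0377). In ACHN cells, with 33.3, 31.2 and 28.6 against 38.7, 32.5 and 32.0, the groups overlapped and the log2 fold change was -0.15 ± 0.12 (adjusted p = 0.873, and 0.113 with the block).

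IGF2BP1, which binds the coding region of MYC mRNA, was nearly absent from 769-P cells, where the 6 libraries held 0 to 2 reads, and it did not pass the filter there. ACHN cells held 102 to 271 reads, or 0.33 to 0.71 scaled FPKM with si-NUF2 and 0.35 to 0.77 with si-NC. The groups overlapped fully and the log2 fold change was 0.01 ± 0.38 (adjusted p = 0.999, and 0.978 with the block). LIN28B had 0 reads in all 12 libraries. A count of 0 allows up to 3 reads, which in these libraries is between 0.013 and 0.0174 FPKM of LIN28B. LIN28A, its paralog, was at 0 in 11 of the 12 libraries and at 0.0072 scaled FPKM in the other.

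ARID3B was low and fell in each same-numbered pair. In 769-P cells it had 3.50, 2.09 and 2.02 scaled FPKM with si-NUF2 and 6.23, 4.35 and 5.19 with si-NC, without overlap. The log2 fold change was -1.05 ± 0.23, with an adjusted p of 0.0345 without the block and 0.00674 with it. This call was lost without si-NUF2 replicate 2 (adjusted p = 0.092) or 3 (0.107) and without si-NC replicate 1 (0.0694), 2 (0.0652) or 3 (0.105), in the fit without the block. In ACHN cells ARID3B had 1.85, 1.09 and 0.965 with si-NUF2 and 3.73, 1.75 and 2.20 with si-NC. Replicate 1 was the highest in both groups, as it was for HMGA2, and si-NUF2 replicate 1 lay above si-NC replicate 2. The log2 fold change of -0.91 ± 0.35 had an adjusted p of 0.565 without the block and 0.0206 with it.

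In all, HMGA2, ARID3B and IGF2BP3 were called lower among the 5 members tested in 769-P cells, where 4.71% of 14155 genes tested were called lower, 5.26% higher and 9.98% in either direction. With the block 4 of 5 were called lower, IGF2BP2 being the fourth, against 13.9% of genes (13.6% higher, 27.5% in either direction). In ACHN cells 0 of 6 members and 0.0% of 15116 genes were called without the block. At an unadjusted p under 0.05 there were 3 of 6 members, HMGA2, ARID3B and IGF2BP3, against 8.19% of genes, and limma-voom on the recovered reads called 0 members. With the block the same 3 were called lower, against 5.05% of genes (7.14% higher, 12.2% in either direction). HMGA2 and IGF2BP3 did not overlap between the groups in either line, and every si-NUF2 library lay below every si-NC library for 16.4% of the genes of 769-P and 5.74% of those of ACHN.

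**Figure D2:**
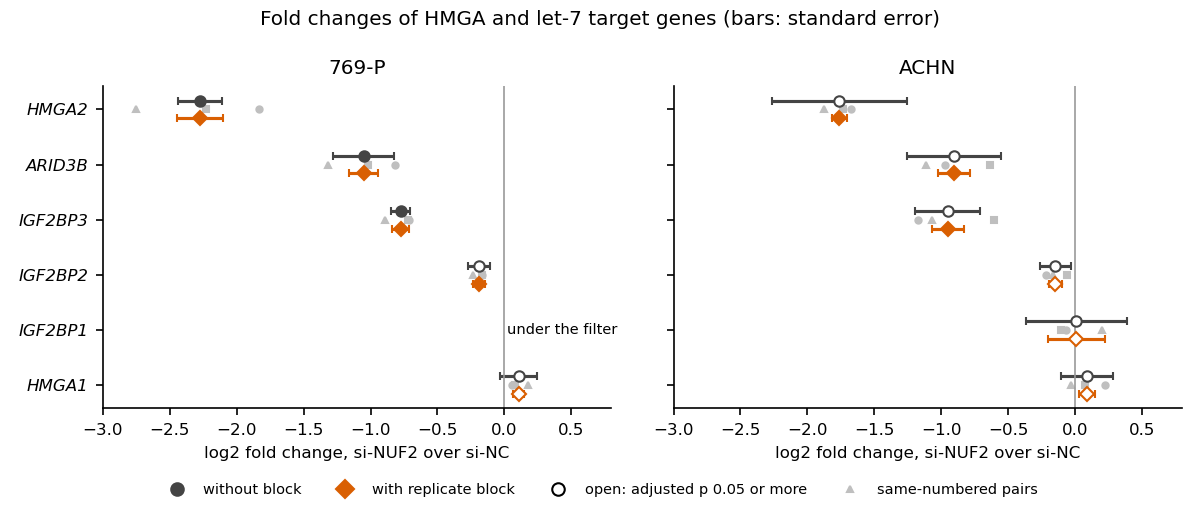
Log2 fold changes of si-NUF2 over si-NC in 769-P (left) and ACHN cells (right), with bars for the standard error, circles for the fit without and diamonds for the fit with the replicate block, filled where the adjusted p is under 0.05, and grey marks for the same-numbered pairs. In ACHN cells the SE of HMGA2 goes from 0.51 to 0.057 with the block, while the fold change stays at -1.76.

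None of the members was shown to respond differently in the 2 lines. The difference of the log2 fold changes, ACHN minus 769-P, was 0.52 for HMGA2, with a 95% interval of -0.77 to 1.80 without the block and -0.01 to 1.05 with it (adjusted p = 1.00 and 0.257). For ARID3B it was 0.15 (-0.84 to 1.15) and for IGF2BP3 -0.17 (-0.75 to 0.41) without the block. Across all genes this difference was called for 0.0% of 16564 genes without the block, where 4.68% had an unadjusted p under 0.05, and for 1.52% with it.

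The levels of the genes under si-NC were also compared between the lines, where line and any batch of culture cannot be told apart. Of the 5 members tested 4 were called, but so were 61.5% of 15376 genes, so the count is not particular to the members. IGF2BP2 was higher in ACHN cells by 1.08 ± 0.11 on the log2 scale (adjusted p = 0.00023), and HMGA1 (-1.14 ± 0.17, adjusted p = 0.00123), ARID3B (-1.10 ± 0.29, adjusted p = 0.0136) and IGF2BP3 (-0.47 ± 0.11, adjusted p = 0.0101) were lower. HMGA2 had a difference of -0.01, with a 95% interval of -0.86 to 0.83 (adjusted p = 0.978), and it turned to 0.39 without ACHN si-NC replicate 2. In both lines HMGA1 had the highest FPKM of the members, and IGF2BP3 and ARID3B came after HMGA2 and IGF2BP2. HMGA2 and IGF2BP2 did not differ beyond their spread in ACHN cells, with 34.6 ± 16.5 against 34.4 ± 3.72 scaled FPKM (SD, n = 3).

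The replicates were then used to ask whether HMGA2 moved with the other genes when the siRNA was held fixed. For this, the mean of its group was taken from each library on the log2 scale, and the deviations of HMGA2 were compared with those of each other gene over the 12 libraries. In ACHN cells HMGA2 deviated by 0.77 and 0.68 in replicate 1 and by -0.78 and -0.80 in replicate 2 of the si-NUF2 and si-NC groups. In 769-P cells the deviations stayed between -0.25 and 0.32. The pattern over 12 libraries therefore rests mainly on 2 pairs of ACHN libraries.

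ARID3B followed HMGA2, with r = 0.78 and rho = 0.75 (each with an exact permutation p of 0.0278, two-sided, the smallest that 36 permutations of the replicate numbers within lines can give). Its r was 0.68 within 769-P and 0.85 within ACHN cells, and 0.66 without the 2 libraries farthest from the median of HMGA2. Over all 12929 genes compared the adjusted p of ARID3B was 0.539, as it was for every gene at the smallest exact p. With so few permutations the threshold could be passed only if most genes reached that smallest p. The adjusted p therefore cannot decide on the relation of ARID3B to HMGA2, which is not established. Over the 12 libraries 8.69% of genes had an r at least as high. The r of ARID3B within a line was reached by 9.36% of genes in 769-P and 15.04% in ACHN cells. HMGA1 had r = 0.75 (exact permutation p = 0.0556, adjusted p = 0.637) and rho = 0.56 (p = 0.25 by the same exact permutation test), with r = 0.93 within ACHN but 0.20 within 769-P cells, and 0.59 without the 2 libraries. An r at least as high was found for 10.9% of genes over the 12 libraries, 7.86% within ACHN and 38.6% within 769-P cells. IGF2BP2 had r = 0.55 and rho = 0.51 (exact permutation p = 0.417 for both, adjusted p = 0.859), with 0.47 and 0.60 within the lines and 0.42 without the 2 libraries. The r of IGF2BP2 over the 12 libraries was reached by 22.6% of genes.

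IGF2BP3, which fell together with HMGA2 under si-NUF2, ran the other way between replicates. It had r = -0.79 and rho = -0.48 (exact permutation p = 0.333 and 0.472, adjusted p = 0.835), and -0.72 without the 2 libraries. In ACHN cells r was -0.90, with IGF2BP3 low in replicate 1 and high in replicate 2 of both groups, and in 769-P cells r was 0.92. The sign thus differed between the lines, and the pooled value holds in ACHN but not in 769-P cells. The deviations of IGF2BP3 in 769-P cells were small, from -0.066 to 0.059. Of the 4 members compared, 1 had a positive r with an exact p under 0.05, which 2.90% of all genes had. The adjusted threshold was passed by 0 genes, and 36 permutations put it out of reach unless most genes had the smallest p. Each line alone has only 6 permutations and cannot go below p = 0.167.

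**Figure D3:**
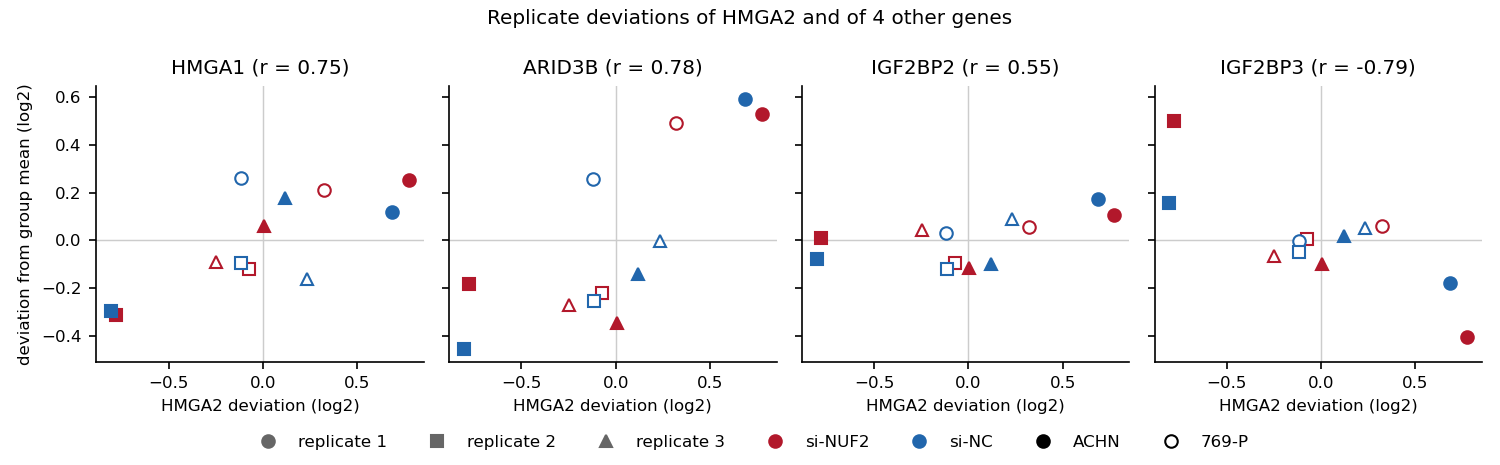
Deviation from the group mean (log2) of HMGA1, ARID3B, IGF2BP2 and IGF2BP3 against that of HMGA2, 1 point for each of the 12 libraries, with the marker for the replicate number, the color for the siRNA and filled markers for ACHN. The ACHN libraries of replicates 1 and 2 sit at the ends of the HMGA2 axis in every panel, and IGF2BP3 slopes downward across them (r = -0.79).

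Other genes known as let-7 targets were listed to set beside the members, 44 in all. Of the 34 that could be compared, 23 (67.6%) had an r with HMGA2 above 0 and their median r was 0.35, where 52.6% of all genes had an r above 0 and the median was 0.055. An exact p under 0.05 with a positive r was found for 3 of them (8.82%), beside 2.90% of all genes. Among these were CCND1, the cyclin of the G1 phase (r = 0.97), and FAS, a death receptor (r = 0.88). The rho of this pair was 0.90 and 0.79 (exact permutation p = 0.0278 for every r and rho, adjusted p = 0.539), and r without the 2 farthest libraries was 0.94 and 0.79. Within 769-P cells r was 0.68 and 0.43, where 9.49% and 23.2% of genes had an r at least as high. Within ACHN cells r was 0.996 and 0.94, reached by 0.410% and 7.05% of genes. CCND1 swung with HMGA2 in ACHN cells, where it had 94.7, 22.8 and 49.8 scaled FPKM with si-NUF2 and 109, 27.6 and 74.9 with si-NC. THBS1, a matrix glycoprotein, had the lowest r of the list at -0.87 (exact permutation p = 0.222, adjusted p = 0.806), with rho = -0.71 (exact permutation p = 0.167) and -0.76 without the 2 libraries. Among all genes with a mean of at least 1 scaled FPKM, the 5 most like HMGA2 were PAQR3 (r = 0.987), GJC1 (0.978), ASPH (0.977), TXN (0.977) and WHAMMP3 (0.976), over the 12 libraries.

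By fold change, 9 of the 36 other let-7 targets tested in 769-P cells were called without the block, 6 lower and 3 higher (9.98% of all genes tested, 4.71% lower and 5.26% higher), with a median log2 fold change of -0.14 beside -0.01 for all genes tested. Among the lower genes were CCND1, PLAGL2, HIC2, DICER1 and CCNJ. CCND1 fell from 299, 236 and 264 to 167, 118 and 116 scaled FPKM (-1.01 ± 0.16, adjusted p = 0.0141). PLAGL2, a zinc finger factor, fell from between 9.37 and 9.47 to between 5.74 and 6.95 (-0.58 ± 0.088, adjusted p = 0.0133). CCNJ, another cyclin, fell by 0.47 on the log2 scale (adjusted p = 0.0251).

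The 3 genes called higher in 769-P cells were THBS1, STARD13 and ARID3A. THBS1 rose from 14.2, 9.91 and 9.72 to 40.0, 28.6 and 38.1 scaled FPKM (1.65 ± 0.18, adjusted p = 0.00588). STARD13, a tumor suppressor in several cancers, changed by 0.87 ± 0.15 (adjusted p = 0.0199). ARID3A, the closest paralog of ARID3B, changed by 0.48 ± 0.11 (adjusted p = 0.0412), so it rose where ARID3B fell. Of these 9 calls, THBS1 was the only 1 kept under each of the 13 other settings without a block, and CCND1 was lost without si-NUF2 or si-NC replicate 3 and in the fit of all 12 libraries. With the block 20 of 36 were called in 769-P cells, 14 lower and 6 higher, beside 27.5% of all genes, 13.9% lower and 13.6% higher.

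In ACHN cells 0 of 36 passed without the block and 8 with it, 3 lower and 5 higher, beside 12.2% of all genes with the block, 5.05% lower and 7.14% higher. The median over the 36 was -0.02 beside 0.01 for all genes. Among the lower genes were CCND2 (-0.69 ± 0.055) and CCNJ (-0.38 ± 0.081), with adjusted p of 0.0118 and 0.0449 with the block. The higher genes were ARID3A (0.59 ± 0.065), CDC25A (0.54 ± 0.11), THBS1 (0.53 ± 0.061), IGF1R (0.32 ± 0.052) and NAP1L1 (0.25 ± 0.044), with adjusted p between 0.0158 and 0.0423 with the block. CCNJ was thus called lower, and ARID3A, THBS1 and NAP1L1 higher, in both lines with the block. HRAS and MYC, which are among the best known let-7 targets, changed by -0.12 and -0.15 on the log2 scale for 769-P and by -0.02 each for ACHN, and neither was called with or without the block.

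**Figure D4:**
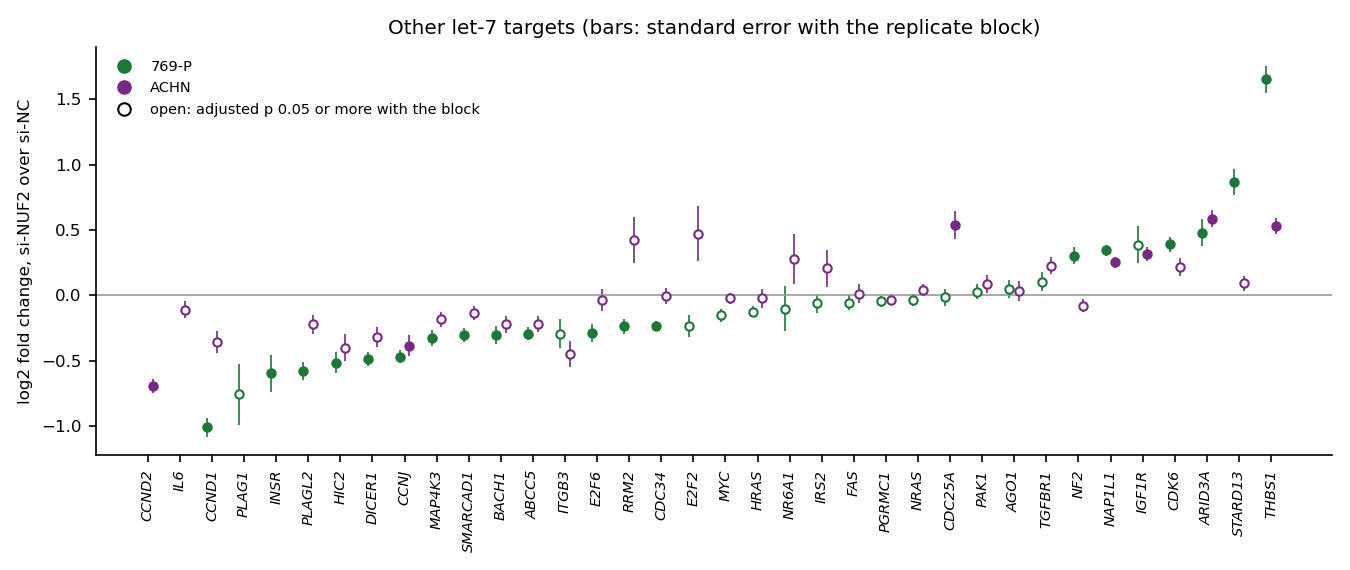
Log2 fold changes of other listed let-7 targets that passed the filter in at least 1 line, with bars for the standard error with the replicate block, 769-P in green and ACHN in purple, filled where the adjusted p with the block is under 0.05. The genes spread on both sides of 0, from CCND1 at -1.01 up to THBS1 at 1.65 for 769-P.

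Genes were also grouped by their seed matches alone, so genes with 0 may still hold the shorter matches. In 769-P cells the median log2 fold change was -0.0051 for 9961 genes with 0 matches, -0.043 for 1083 with at least 1, -0.11 for 122 with at least 2 and -0.12 for 21 with at least 3. In ACHN cells the medians were 0.011 (10499 genes), -0.013 (1139), -0.047 (133) and -0.063 (23). The medians went down by small steps in the order of the matches. The length of the 3′ UTR moved with them, with medians of 993, 2862, 5262 and 5954 bases in 769-P cells. Among genes with a 3′ UTR of 3000 bases and over, the median was -0.052 for 0 matches and -0.058 for at least 1 in 769-P cells, and -0.023 for both in ACHN cells. From 1500 to 3000 bases it was -0.015 for 0 matches and -0.023 for at least 1 in 769-P cells. In ACHN cells that class had 0.0089 and -0.0094. Whether length accounts for the steps was not tested.

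HMGA2, at -2.27, stood at the low end of the 21 genes with at least 3 matches that were tested in 769-P cells, and the next were HIC2, a transcriptional repressor (-0.51), and ZBTB37 (-0.48). Of these 21 genes, 3 were called lower without the block, the same 3 genes, and 0 higher, where 5.47% of all genes with a 3′ UTR were called lower. Among genes with 0 matches and a 3′ UTR of 3000 bases and over, 8.19% were. In ACHN cells 0 of 23 genes with at least 3 matches were called without the block. With it 2 were called lower and 2 higher there, beside 5.90% and 8.55% of all genes with a 3′ UTR. LIMD2, with 4 matches like HMGA2, was called lower in both lines with the block alone, at -0.22 for 769-P (adjusted p = 0.0479) and -0.33 for ACHN (adjusted p = 0.0313). SMC1A, the cohesin subunit, also had 4 matches and was called higher in both lines with the block alone, by 0.30 on the log2 scale for 769-P (adjusted p = 0.0134) and by 0.46 for ACHN (adjusted p = 0.0224).

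**Figure D5:**
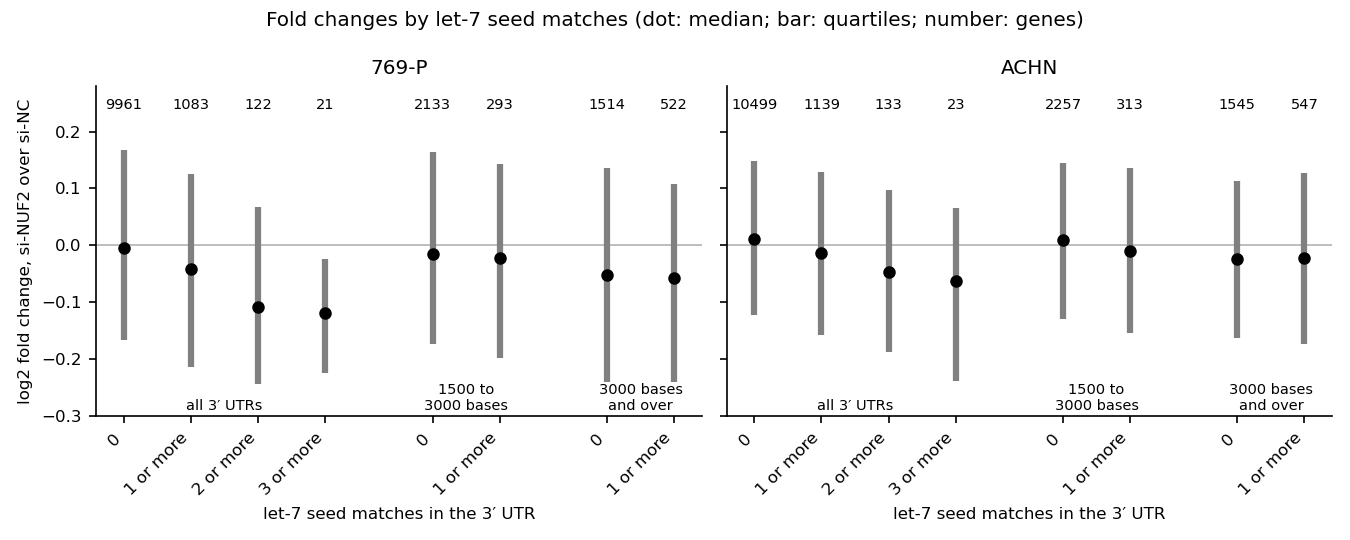
Median (dot) and quartiles (bar) of the log2 fold change of genes by their number of let-7 seed matches in the 3′ UTR, for all 3′ UTRs and for 2 classes of 3′ UTR length, with the number of genes above each bar. Over all 3′ UTRs the medians step down to -0.12 (769-P) and -0.063 (ACHN), and they lie close together for 0 and 1 or more matches at lengths of 3000 bases and over.

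Mature let-7 was not measured in these libraries. Of 18 genes that encode or host let-7, 7 passed the filter in each line and 1, MIRLET7I, was called lower in 769-P cells (-2.20 ± 0.43, adjusted p = 0.0263, and 0.00232 with the block). It held 3, 2 and 1 reads with si-NUF2 and 14, 11 and 6 with si-NC, so the change rests on few reads of the hairpin of 84 bases, and limma-voom did not call it. In ACHN cells the reads were 9, 4 and 8 against 5, 1 and 7. MIRLET7BHG, the host transcript of let-7b, had log2 fold changes of -0.35 ± 0.21 and -0.10 ± 0.26 (adjusted p = 0.325 and 0.990).

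Of 17 genes of let-7 maturation and the LIN28 pathway, 14 were tested in each line. In 769-P cells 1 was called higher and 2 lower without the block, beside 5.26% and 4.71% of all genes. With it 2 were called higher and 6 lower, beside 13.6% and 13.9% of all genes. In ACHN cells none was called without the block, as for all genes, and 2 higher and 1 lower with it, beside 7.14% and 5.05% of all genes. DROSHA, which makes the first cut of the primary microRNA, was at 8.74, 7.38 and 7.83 scaled FPKM with si-NUF2 and at 6.10, 4.85 and 4.68 with si-NC in 769-P cells (0.61 ± 0.12, adjusted p = 0.0278). It also did not overlap in ACHN cells (0.49 ± 0.13, adjusted p = 0.399, and 0.0193 with the block). DICER1, which makes the second cut and is itself a let-7 target, was lower in 769-P cells (-0.49 ± 0.11, adjusted p = 0.0378), as was AGO2, the slicing Argonaute (-0.57 ± 0.077, adjusted p = 0.0109). In ACHN cells these had -0.32 ± 0.10 and -0.33 ± 0.21, and only AGO2 was called, with the block (adjusted p = 0.0440, and 0.0556 for DICER1). DIS3L2, the nuclease that degrades uridylated let-7 precursors, was called higher in both lines with the block alone (0.35 and 0.31, adjusted p = 0.0385 and 0.0353).

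At the HMGA2 locus, RPSAP52, an antisense pseudogene transcript that overlaps the 5′ end of HMGA2, was not called. It had 1.64, 0.767 and 1.17 scaled FPKM with si-NUF2 and 1.06, 0.684 and 0.723 with si-NC in 769-P cells (0.46 ± 0.29, adjusted p = 0.363, and 0.0923 with the block), and changed by 0.00 ± 0.48 on the log2 scale for ACHN (adjusted p = 1.00). It shares no exon bases with HMGA2. AC090673.1, an antisense gene that shares 384 exon bases with HMGA2, stayed at or under 0.582 scaled FPKM in each library. MSRB3, a methionine sulfoxide reductase listed with this locus, rose in 769-P cells from 0.424, 0.379 and 0.296 to 1.13, 1.06 and 1.41 (1.48 ± 0.21, adjusted p = 0.0124), and in ACHN cells it was called higher with the block (0.55 ± 0.084, adjusted p = 0.0250). LLPH, listed with the same locus, had 0.14 ± 0.096 and -0.02 ± 0.15 (adjusted p = 0.391 and 0.997). SMIM29, listed with the HMGA1 locus, was called higher in 769-P cells (0.38 ± 0.079, adjusted p = 0.0308). Of 7 HMGA1 pseudogenes, HMGA1P2 passed the filter in both lines and HMGA1P8 in ACHN cells, with none called. Their near-identical copies of the HMGA1 sequence make their counts uncertain.

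Among 8 other high-mobility group genes, HMGN3 was called lower in 769-P cells (-0.48 ± 0.11, adjusted p = 0.0429) and the median was -0.07. With the block HMGB1 joined it there (-0.31 ± 0.069, adjusted p = 0.0314), and HMGB2 and HMGN2 were called higher in ACHN cells (0.22 and 0.20). Of 8 other ARID genes tested, ARID3A was the only 1 called in 769-P cells without the block. With it, ARID5B was called higher there (0.65 ± 0.13, adjusted p = 0.0223) and ARID1A, a subunit of the SWI/SNF complex, lower (-0.28 ± 0.056, adjusted p = 0.0231). In ACHN cells ARID4A was called lower with the block (-0.41 ± 0.073, adjusted p = 0.0326) and ARID3A higher. Over all genes tested, 9.98% were called in 769-P cells without the block, and 27.5% there and 12.2% in ACHN cells with it.

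Among 14 mRNAs bound by IGF2BP proteins and genes of the IGF2 axis, CTNNB1, which encodes β-catenin, was called lower in 769-P cells (-0.28 ± 0.064, adjusted p = 0.0379), and the median was -0.03. Without the block CTNNB1 was the only call of this list, beside 9.98% of all genes in 769-P cells. With it 3 of 14 were called higher and 3 lower there, beside 13.6% and 13.9% of all genes. In ACHN cells 3 of 13 were called higher and 0 lower with it, beside 7.14% and 5.05%. CTGF (1.40 ± 0.16 and 0.69 ± 0.072) and ACTB (0.23 ± 0.033 and 0.22 ± 0.043) were called higher in both lines with the block (adjusted p of 0.00797 and 0.0146 for CTGF, and 0.0113 and 0.0406 for ACTB). IGF2 was low, between 0 and 1.89 scaled FPKM, and not tested. Among 12 genes linked to HMGA2, SMAD3 was called lower in 769-P cells (-0.51 ± 0.12, adjusted p = 0.0379) and had -0.30 ± 0.057 in ACHN cells with the block (adjusted p = 0.0380). With the block 6 of the 12 were called in 769-P cells, 4 lower and 2 higher, beside 27.5% of all genes (13.9% lower, 13.6% higher). In ACHN cells 5 were called with it, 3 lower and 2 higher, beside 12.2% of all genes (5.05% lower, 7.14% higher). The higher genes in 769-P cells were FOSL1 (0.39 ± 0.035, adjusted p = 0.00571) and CCNB2 (0.27 ± 0.047, adjusted p = 0.0165), and CCNA2 (-0.25 ± 0.062, adjusted p = 0.0424) and the member IGF2BP2 were among the lower. E2F1 was called higher in ACHN cells (0.81 ± 0.12, adjusted p = 0.0241) and CDKN1A, the inhibitor p21, lower (-0.78 ± 0.099, adjusted p = 0.0189). TGFBR2, the type II receptor of the same pathway, was called lower in both lines with the block alone (-0.43 ± 0.082 and -0.25 ± 0.052, adjusted p = 0.0211 and 0.0440). CDH1, E-cadherin, was called higher in ACHN cells with the block (0.70 ± 0.13, adjusted p = 0.0369), and in 769-P cells it was nearly absent, at no more than 0.0317 scaled FPKM.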

How the data were processed

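The authors sequenced total RNA on an Illumina NovaSeq, filtered the reads with fastp and, per the labels, used HISAT2 2.0.5, featureCounts 1.5.0-p3 and hg38. They deposited 1 FPKM value per gene and library, with the strand setting not given in the sources used here. The members and gene lists were chosen with earlier results of these data known.

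Whole reads were recovered with the exon lengths of GENCODE release 29 for 35208 of the 36305 genes above 0 (96.4% of low values whole within 0.02), and gave 29156132 to 38662438 reads per library, which sets the precision of low genes. FPKM were scaled by a trimmed mean of log ratios (factors 0.990 to 1.01 in each line). Genes with at least 0.5 scaled FPKM in at least 3 of 6 libraries were fitted on log2(scaled FPKM + 0.1) with limma 3.58.1 (lmFit, eBayes with trend) in R 4.3.3, each line alone. This scale understates the change of low genes. Differences between lines were fitted on all 12 libraries. P-values were adjusted by Benjamini-Hochberg over all genes tested, with a threshold of 0.05. In simulated data 99% of 200 genes changed by 1 on the log2 scale were recovered among 13922 in the 769-P design, with 8 false calls. The simulation gave every gene the same dispersion and no shared replicate effect, and changed only genes with many reads. It covered neither ACHN cells nor the block, so it does not give the recovery in the real data.

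Same-numbered libraries deviated together over all genes (r = 0.190 to 0.359 for 769-P, 0.460 to 0.735 for ACHN), so the replicate numbers pair the libraries, a pairing seen in the data and not stated in the labels. The fit without the block stays first, as planned, with blocked values beside it.

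Seed matches were counted in the 3′ UTR of the APPRIS principal transcript, or the longest where there was none. Correlations used Python 3.11.15 with NumPy 2.4.6, pandas 2.3.3 and SciPy 1.17.1, with the replicate numbers of HMGA2 permuted within each line. Named genes were the 7 members, listed genes called in either line with or without the block (up to 6 per list and direction, with some listed genes counted but not reported here by name), RPSAP52, LIN28A, DICER1, the let-7 host transcripts, NUF2 and the 5 genes most like HMGA2. HRAS, MYC, LLPH, SMC1A and LIMD2 were named after their values were seen, as were MALSU1 and AC090673.1, which share exon bases with members. The alternatives were median-ratio or no further scaling, pseudocounts of 1 and 0.01, no filter, the block, all 12 libraries in one fit, each library left out in turn and, added after seeing the data, limma-voom on recovered reads.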

Additional observations from a re-analysis of the deposited data

Results flagged for a closer look

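Among the other let-7 targets, 2 differed between the lines in their response by the test, with the replicate block alone, and 3 more differed in sign without passing it. Over all genes 1.52% passed it with the block and 0.0% without. The values are ACHN minus 769-P on the log2 scale, over 3 same-numbered pairs in each line. With the replicate block, the difference was -1.12 for THBS1 (95% interval -1.44 to -0.79, adjusted p = 0.0343) and -0.77 for STARD13 (-1.01 to -0.53, adjusted p = 0.0369). Both were higher with si-NUF2 in 769-P cells by more than in ACHN cells, and neither difference was called without the block (adjusted p = 1.00 and 0.928). THBS1 was the more abundant in ACHN cells under either siRNA, at 116 to 474 scaled FPKM against 9.72 to 40.0.

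For 3 further genes every pair of 1 line moved one way and every pair of the other line the opposite way. The share of all genes that did so was not counted, so this does not set the 3 apart from other genes. The difference was 0.71 for E2F2 (adjusted p = 0.187 with the block), 0.67 for RRM2 (adjusted p = 0.172) and -0.38 for NF2 (adjusted p = 0.0762), so none of these 3 passed the test. E2F2 and RRM2 were lower in each 769-P pair and higher in each ACHN pair, and NF2 was the reverse.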

How the results depend on the processing

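The threshold in ACHN cells depended on the replicate block. Of 6 members tested, 0 were called without it, 3 with it (HMGA2, IGF2BP3 and ARID3B) and 1, IGF2BP3, with all 12 libraries in one fit. In 769-P cells the block moved the count of members called from 3 to 4, and over all genes it brought 3898 calls in place of 1412 for 769-P, and 1843 in place of 0 for ACHN. HMGA2 and IGF2BP3 kept their calls in 769-P cells under all 14 alternatives. ARID3B lost its call there without a filter, in the fit of all 12 libraries (adjusted p = 0.0943 and 0.0942) and without any 1 of 5 libraries. Of the other listed genes called in 769-P cells without the block, THBS1 kept its call under all 13 other settings without a block and MSRB3 under the 9 in which it was tested, while AGO2 lost its call under 1, PLAGL2 under 2, CCND1 under 3 and the remaining ones under 5 to 8. Leaving out each library in turn gave -2.43 to -2.15 for HMGA2 (769-P) and -2.16 to -1.37 (ACHN).

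Some small values changed sign, none of them called. IGF2BP1 in ACHN cells was -0.0032 with no further scaling, -0.028 with limma-voom and -0.22 to 0.28 with libraries left out, and HMGA1 there -0.060 to 0.25. HMGA2 in ACHN against 769-P cells was 0.020 with median-ratio scaling, 0.025 with no further scaling, 0.048 with limma-voom and -0.36 to 0.39 with libraries left out. For the difference of response, leaving out libraries gave -0.18 to 0.13 for HMGA1, -0.21 to 0.30 for IGF2BP1, -0.017 to 0.14 for IGF2BP2, -0.44 to 0.032 for IGF2BP3 and -0.11 to 0.45 for ARID3B. The r of IGF2BP3 with HMGA2 was 0.92 in 769-P cells alone, against -0.79 over both lines. The cause of these shifts was not tested. Few reads limit MIRLET7I, and IGF2BP1 in ACHN cells spread by over 2-fold within a group at 102 to 271 reads.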
